A study of Mus musculus with 6 samples.

Results

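Schwann cells, the glia of peripheral nerve, are a small part of the mammary gland, and 8 genes that mark them and their myelin were followed here through the glands of metformin-treated and control mice. The genes were Mbp, Prx, Mag, Ncmap, Cnp, Gldn, S100b and Ngfr, found by symbol among the 25160 features of the deposited count table. Each symbol gave 1 row, and all 8 genes were among the 15925 features with enough counts to be tested. They were taken by name, to compare their levels between the groups and to see whether Ngfr followed the myelin genes from mouse to mouse.

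Nerve fibers enter the mammary gland along its vessels and into the nipple and skin. A myelinating Schwann cell wraps 1 axon in many turns of its own membrane, and the proteins of that sheath are made together as it forms. Ngfr, the low-affinity neurotrophin receptor, is made by immature and non-myelinating Schwann cells and is switched off in myelinating ones in rodent nerve, and it is also made by some cells outside nerve, among them pericytes, follicular dendritic cells and basal epithelial cells.

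The metformin group was 3 female wild-type FVB/N mice given 200 mg/kg/day of metformin, an anti-diabetic drug, by intraperitoneal injection from week 8 to week 18 of age. The control group was 3 female mice of the same strain and age given saline by the same route. All mice ate an estrogen-free diet, and RNA of the fourth (inguinal) mammary gland, with its lymph node removed, was sequenced as 1 library per mouse. Mice are named here by group and number, such as metformin 2, and the labels give no pairing by number. In RNA from a whole gland, fewer cells of a type and less RNA per cell cannot be told apart.

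The libraries held 37705492 to 47370885 counts in the metformin group and 35375365 to 47056181 in the control group. The 6 milk protein genes took 0.0226 to 0.0817% of the counts in metformin mice, against 3.72%, 3.67% and 0.0563% in controls 1, 2 and 3, so control 3 was like the metformin mice in their share. Levels below are CPM (counts relative to library size) scaled by the TMM method, unless another unit is named. A gene was counted as past the thresholds at a fold change of at least 1.5 and an unadjusted p under 0.01. These are the cutoffs of the study, which used them with DESeq2. Here they are applied to edgeR's quasi-likelihood test, unless another tool is named. Each p-value measures the spread between the mice of a group.

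The windows around the starts of Prx, whose counts served as the yardstick for the other myelin genes, and of Ngfr, which departed from that yardstick most, are shown because their base composition differed. Both are RefSeq windows of 300 bases on GRCm38.p6, written 5′ to 3′ on the strand of the gene. Capitals mark a CCAAT box (the letters CCAAT) in the Prx window and a GC box (the letters GGGCGG) in the Ngfr window, found on either strand. The Prx window lies at chr7:27499074-27499373 on the plus strand, and the Ngfr window at chr11:95587649-95587948 on the minus strand.

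Prx: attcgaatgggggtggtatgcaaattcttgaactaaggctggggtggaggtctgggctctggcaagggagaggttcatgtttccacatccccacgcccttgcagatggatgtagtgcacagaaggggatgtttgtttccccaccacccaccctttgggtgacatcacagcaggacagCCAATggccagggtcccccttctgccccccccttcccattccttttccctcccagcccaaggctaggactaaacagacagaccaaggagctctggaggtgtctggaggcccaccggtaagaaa
Ngfr: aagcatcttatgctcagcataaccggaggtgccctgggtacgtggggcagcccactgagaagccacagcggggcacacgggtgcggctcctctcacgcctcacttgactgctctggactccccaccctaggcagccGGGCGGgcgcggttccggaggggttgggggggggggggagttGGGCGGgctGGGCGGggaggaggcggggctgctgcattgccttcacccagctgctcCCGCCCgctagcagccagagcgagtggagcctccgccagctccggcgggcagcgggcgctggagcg

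The Ngfr window was 71.7% G and C and the Prx window 56.7%, against a median of 52.7% over all 32851 windows of the RefSeq table. The Ngfr window held 4 GC boxes and 0 CCAAT boxes, and the Prx window held 0 GC boxes and 1 CCAAT box. GC boxes were also near the starts of other genes of the 8, so they were not particular to Ngfr. There were 3 in window 1 of Ncmap, at 67.7% G and C, 2 in the window of Cnp and 1 in that of Gldn. Window 2 of Ncmap and the windows of Mag and S100b held 0. A GC box was present in 35.7% of all windows and a CCAAT box in 37.4%. The core letters bound by SOX factors (ACAAAG, in 18.7% of windows) and the EGR letters (GCGTGGGCG, in 0.612%) were in neither the Ngfr nor the Prx window. The SOX letters were in the window of Cnp and in windows 1 and 2 of Mag. The EGR and GC box letters can overlap, since both hold GGGCG, and a match is a description of the letters only. Windows were found for 7 of the 8 genes.

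None of the 8 genes passed the thresholds in edgeR's quasi-likelihood test, where 1.7% of the 15925 tested features did, 0.421% higher and 1.28% lower in metformin glands. At an unadjusted p under 0.05 the count was 1 of the 8 genes, Ngfr, against 7.53% of all tested features, 2.68% higher and 4.85% lower. At a Benjamini-Hochberg adjusted p under 0.05 it was 0 of 8 genes and 0 of all features. DESeq2 put 1 of the 8 past the thresholds, again Ngfr, against 3.26% of all features, and limma-voom put 0 of the 8, against 1.22% of all features. The 2 groups overlapped for every one of the 8 genes, whereas they did not overlap for 13.2% of tested features. The log2 fold change, metformin over control, had a median of -0.18 over the 8 genes and 0.01 over all features, with 7 genes on the lower side and Ngfr on the higher side.

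**Figure D1:**
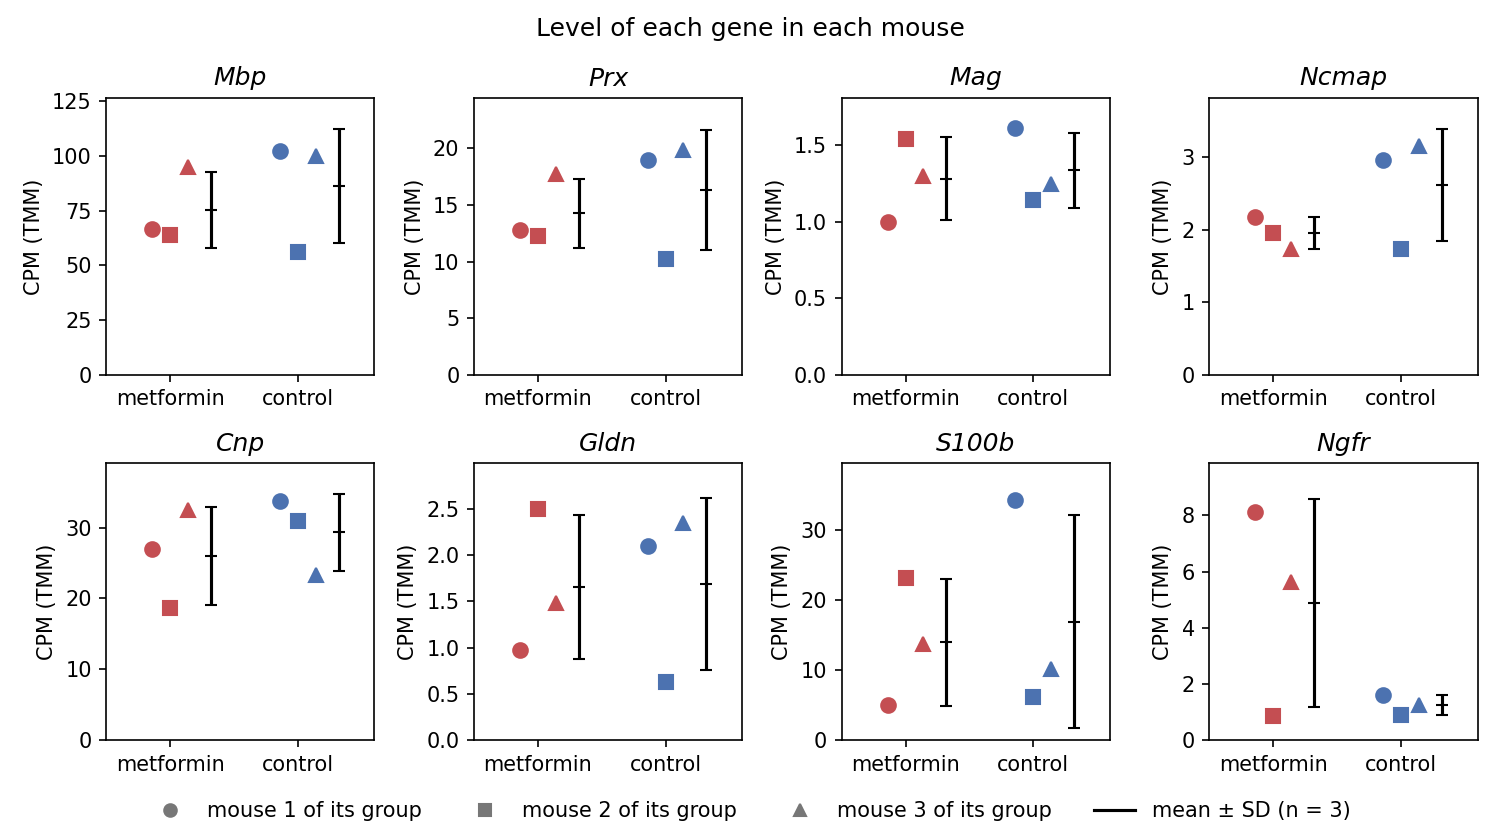
Level of each of the 8 genes in each mouse, in CPM scaled by TMM, with metformin mice in red on the left and control mice in blue on the right of each panel, a symbol for each mouse, and black bars for the mean ± SD of 3 mice. Mbp and Prx show the same pattern of high and low mice, while Ngfr stands at 8.14 and 5.63 CPM in metformin 1 and 3 and at 0.842 to 1.61 CPM in the other mice.

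Per unit of transcript length, in the deposited FPKM, Mbp was the most abundant of the 8 at 29.2 ± 10.4 FPKM (SD, n = 6 mice), and its lowest mouse, at 18.2, was above the highest mouse for Cnp, at 13.6, but below the highest for S100b, at 20.0. Cnp averaged 10.96 ± 2.56 FPKM and S100b 9.36 ± 6.31 FPKM, and their ranges overlapped. Prx averaged 2.86 ± 0.887 FPKM, with a range that overlapped that of S100b and lay above that of Ncmap. Ncmap averaged 1.14 ± 0.356, Ngfr 0.828 ± 0.832, Mag 0.494 ± 0.074 and Gldn 0.328 ± 0.150 FPKM. Ngfr, whose range was 0.197 to 2.14 FPKM, overlapped Prx and all of the other 3, and Mag overlapped Gldn.

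Mbp encodes myelin basic protein, which holds the inner faces of the compacted membrane together and is also made by oligodendrocytes, the myelinating cells of the brain. It was at 66.4, 63.9 and 95.04 CPM in metformin 1, 2 and 3, against 102, 56.3 and 99.9 CPM in controls 1, 2 and 3. Metformin 3, control 1 and control 3 stood together at the upper level and the other 3 mice at the lower, so each group held mice of both levels. Between the groups the log2 fold change was -0.20 (SE 0.27, adjusted p = 0.871 by edgeR's quasi-likelihood test with Benjamini-Hochberg adjustment). The oligodendrocyte genes Mobp and Opalin had 0 counts in all 6 libraries, and of the 8 genes on that list 2 had enough counts to be tested. The summed level of the list was 1.36 to 1.55 CPM in metformin mice and 0.709 to 2.16 CPM in controls.

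Prx encodes periaxin, a scaffold of the Schwann cell membrane that ties the outer face of the sheath to its surroundings. It was at 12.8, 12.2 and 17.8 CPM in metformin mice, against 19.0, 10.2 and 19.8 CPM in controls. The same 3 mice as for Mbp were the highest, and the groups overlapped. The log2 fold change, -0.20 with an SE of 0.29, had an edgeR adjusted p of 0.880. The gene lies at chr7:27499324-27520214 (GRCm38) on the plus strand, and 300 of its 5579 exonic bases are shared with the antisense gene Gm15541, so some reads over those bases could belong to either gene.

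Counts of Mbp and Prx kept a nearly fixed ratio within each library, a measure that no scaling of the libraries can move. There were 5.20, 5.23 and 5.35 Mbp counts per Prx count in metformin mice, against 5.40, 5.50 and 5.03 in controls. The highest of the 6 ratios was 1.09-fold the lowest, while the level of Mbp spread over 1.82-fold and that of Prx over 1.94-fold. The SD of the log2 ratio was 0.0453, and 0.0640 is what counting error alone gives at these counts, so the mice did not differ in this ratio beyond counting error. When every other tested feature was ranked by the SD of its log2 difference from Prx over the 6 mice, Mbp came 1st of 15924, where the median SD was 0.542. The ranking describes likeness over 6 glands with 1 library each, and it was not tested against chance.

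**Figure D2:**
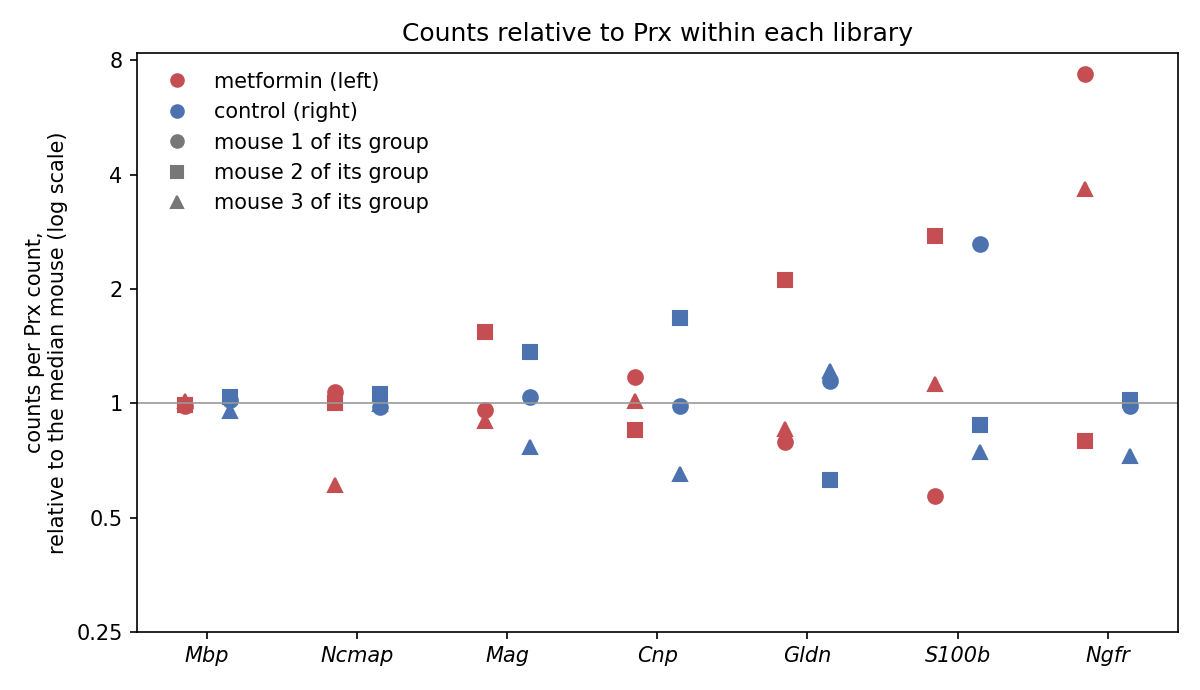
Counts of each gene per count of Prx in the same library, divided by the median of the 6 mice and drawn on a log scale, with metformin mice in red on the left and control mice in blue on the right of each gene. The 6 points of Mbp lie on top of each other within a 1.09-fold range, whereas those of S100b span 4.84-fold and those of Ngfr 10.2-fold.

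Ncmap encodes a small membrane protein of peripheral compact myelin. It was at 2.18, 1.95 and 1.73 CPM in metformin mice, against 2.95, 1.73 and 3.15 CPM in controls. Controls 1 and 3 were above all metformin mice and control 2 was level with the lowest of them. Its log2 fold change was -0.42 (SE 0.35, edgeR adjusted p = 0.799). Ncmap came 473rd in likeness to Prx, and its 1.76-fold range of counts per Prx count rested on metformin 3, which had 0.0972 where the other 5 mice had 0.156 to 0.171.

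Cnp encodes an enzyme of the cytoplasmic channels of the sheath that many other cell types make at a lower level. It was at 26.9, 18.7 and 32.5 CPM in metformin mice, against 33.7, 31.0 and 23.3 CPM in controls. Metformin 2 was the lowest mouse and control 1 the highest, and the groups overlapped. The log2 fold change was -0.17 (SE 0.24, edgeR adjusted p = 0.873). Its order of mice differed from that of Mbp: control 2, the lowest mouse for Mbp, was the 3rd highest for Cnp, and counts per Prx count ranged 2.58-fold. Of the 3639 exonic bases of Cnp, 154 are shared with the antisense gene Dnajc7.

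Mag encodes myelin-associated glycoprotein, which sits on the innermost turn of the sheath against the axon. It was at 1.00, 1.54 and 1.30 CPM in metformin mice, against 1.61, 1.14 and 1.25 CPM in controls. These levels rest on 45 to 64 counts per library, and the 95% counting intervals of the lowest mouse, 0.730 to 1.34 CPM, and of the highest, 1.21 to 2.11 CPM, overlapped. For the groups as a whole the log2 fold change was -0.06 (SE 0.37, edgeR adjusted p = 0.977). At this depth the order of the mice for Mag was therefore not resolved. All intervals quoted cover counting error only.

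Gldn encodes gliomedin, which Schwann cells release to gather sodium channels at the node of Ranvier, the gap between neighboring stretches of myelin. It was at 0.978, 2.50 and 1.48 CPM in metformin mice, against 2.10, 0.622 and 2.35 CPM in controls. Metformin 2 was the highest mouse and control 2 the lowest, a 4.02-fold spread that ran through both groups. The counting interval of control 2, 0.423 to 0.883 CPM, lay below that of metformin 2, 2.04 to 3.03 CPM. Between the groups the log2 fold change was -0.03 with an SE of 0.58 (edgeR adjusted p = 0.994).

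S100b encodes a calcium-binding protein used to stain Schwann cells, and it is made by adipocytes as well. It was at 5.00, 23.2 and 13.8 CPM in metformin mice, against 34.4, 6.18 and 10.2 CPM in controls. Control 1 and metformin 2 were the highest mice and metformin 1 and control 2 the lowest, a 6.87-fold spread within and across the groups. The log2 fold change was -0.27 (SE 0.71, edgeR adjusted p = 0.940), and without control 1 it was 0.77 (SE 0.60). S100b came 14252nd of 15924 in likeness to Prx, with 0.392, 1.90 and 0.775 counts per Prx count in metformin mice, against 1.81, 0.604 and 0.514 in controls.

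Of the other genes on the lists, the one most like S100b over the 6 mice was Mag, which had the same order of mice (r = 0.98, rho = 1), although its counts do not resolve that order. The r with S100b ran from -0.73 for Scn7a to 0.86 for Ncam1 over the 11 tested Schwann lineage genes, with -0.26 for Erbb3 and -0.05 for Sox10, and from -0.05 for Prph to 0.81 for Stmn2 over the 3 tested axon genes. Myh2, a myosin of skeletal muscle, was at 0.81 as well, and all of these are descriptions with no test.

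The brown adipocyte genes Ucp1, Cidea, Elovl3 and Cox8b also resembled S100b, a relation that was looked at after the values had been seen and is given as a description with no test. The 4 genes together were at 260, 4761 and 1196 CPM in metformin mice, against 2732, 463 and 486 CPM in controls, and none of the 4 was at 0 in any mouse. Ucp1, the uncoupling protein that makes brown fat produce heat, had a Pearson r of 0.93 and a Spearman rho of 0.94 with S100b over the log2 levels of the 6 mice. Cidea and Elovl3, a lipid droplet protein and a fatty acid elongase, each had r = 0.95 and rho = 0.94. Cox8b, a subunit of the respiratory chain, had r = 0.74 and rho = 0.71.

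Without the 2 mice farthest from the median of each brown adipocyte gene, the r with S100b was 0.97 for Ucp1, 0.89 for Cidea, 0.84 for Elovl3 and 0.99 for Cox8b. With 3 mice a group was too small for a value of its own. The parts of brown adipocytes and of Schwann cells in the level of S100b were not tested.

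**Figure D3:**
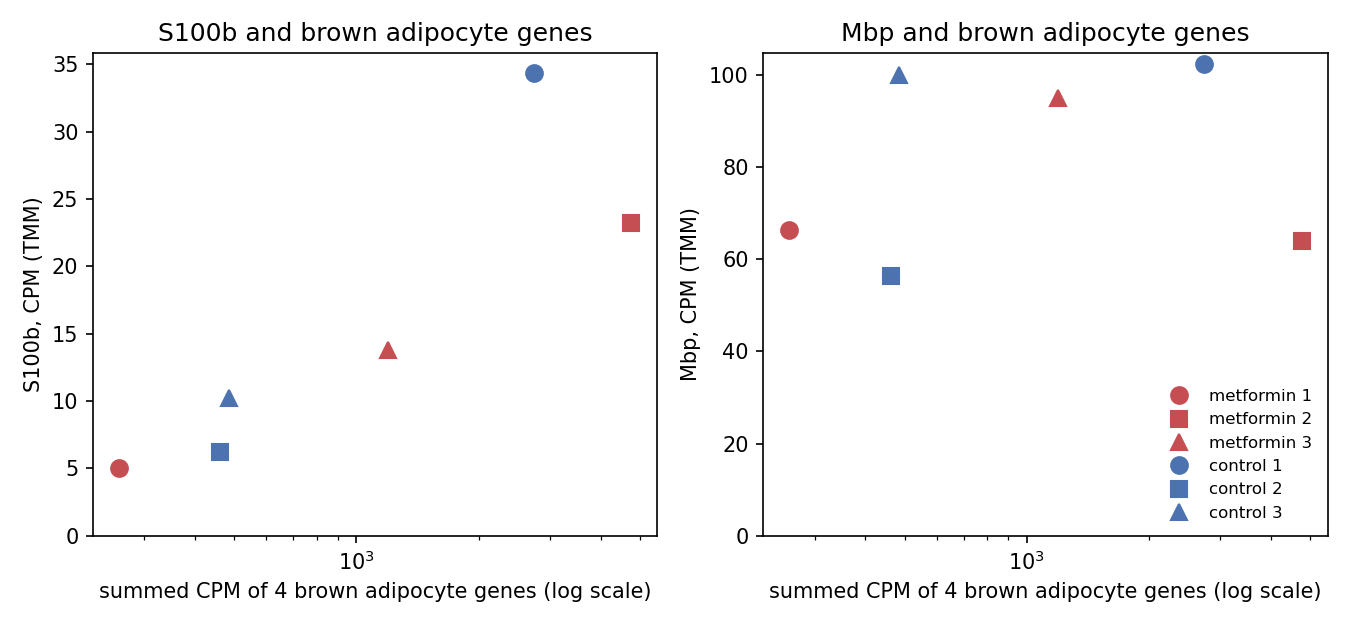
Level of S100b (left panel) and of Mbp (right panel) in CPM against the summed level of Ucp1, Cidea, Elovl3 and Cox8b in CPM on a log scale, with metformin mice in red and control mice in blue and a symbol for each mouse. S100b climbs from 5.00 CPM at a sum of 260 to 34.4 and 23.2 CPM at sums of 2732 and 4761, while Mbp shows high and low mice at both ends.

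Ngfr, at chr11:95568818-95587735 (GRCm38) on the minus strand with no exonic base shared with another gene, was higher in 2 of the 3 metformin mice than in any control. It was at 8.14, 0.842 and 5.63 CPM in metformin 1, 2 and 3, against 1.61, 0.903 and 1.25 CPM in controls 1, 2 and 3. The counts behind these levels were 366, 35 and 225 in metformin mice, against 53, 45 and 51 in controls. Metformin 1 and 3 stood far above every other mouse, and metformin 2 was the lowest of the 6.

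These gaps were larger than counting error. The 95% counting intervals of metformin 1 (7.32 to 9.01 CPM) and metformin 3 (4.92 to 6.42 CPM) lay above that of control 1, the highest control (1.21 to 2.11 CPM). That of metformin 2 (0.586 to 1.17 CPM) overlapped the intervals of controls 2 and 3. In the deposited FPKM the same mice stood apart, with 2.14, 0.197 and 1.61 FPKM in metformin mice, against 0.399, 0.251 and 0.367 FPKM in controls.

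The log2 fold change of Ngfr was 1.96 with an SE of 0.73, the largest in size of the 8 genes. The edgeR quasi-likelihood p was 0.0291 before and 0.626 after Benjamini-Hochberg adjustment, so Ngfr did not pass the thresholds in edgeR. DESeq2, the tool of the study, gave the same log2 fold change of 1.96, with a p of 0.00495 before and 0.178 after adjustment, which passed them. The paper likewise lists Ngfr among its upregulated genes. The limma-voom log2 fold change was 1.51 with an adjusted p of 0.738, which did not pass. On the log2(FPKM + 1) scale, which understates changes of low genes, the difference was 0.68. Without metformin 2 the log2 fold change was 2.46 (SE 0.38, edgeR adjusted p = 0.862), which passed the thresholds, and without metformin 1 it was 1.36 (SE 0.77).

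**Figure D4:**
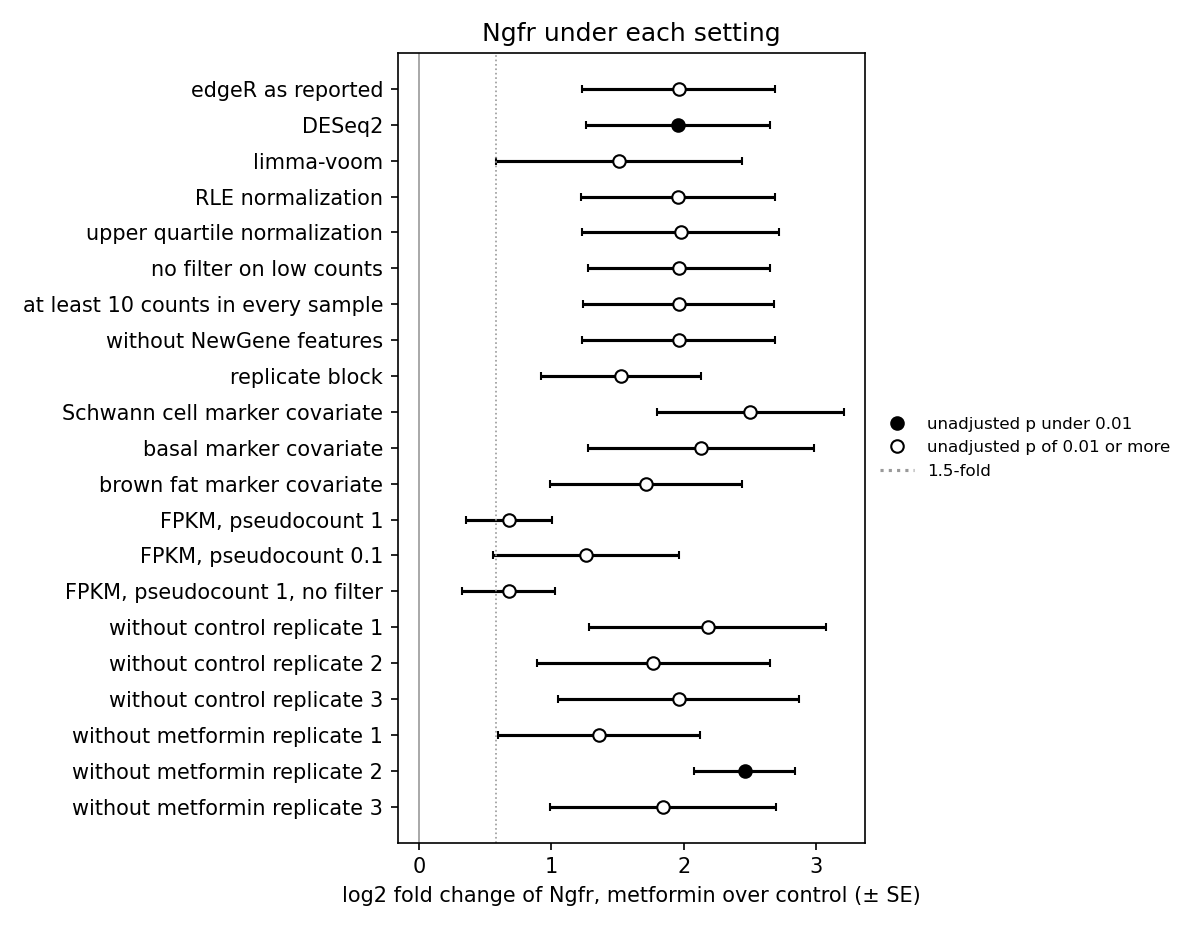
Log2 fold change of Ngfr, metformin over control, with bars of 1 SE, in the edgeR test as reported and under 20 other settings, including other tools, other scaling, marker levels as covariates and 1 mouse left out. Every estimate is above 0, from 0.68 to 2.50, and the filled points (unadjusted p under 0.01) are DESeq2 and the fit without metformin 2.

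Ngfr did not follow the myelin genes from mouse to mouse. Counts of Ngfr per Prx count were 0.638, 0.0689 and 0.317 in metformin mice, against 0.0851, 0.0882 and 0.0628 in controls, a 10.2-fold range. The SD of the log2 ratio was 1.38, where counting alone gives 0.192, and Ngfr came 15325th of 15924 features in likeness to Prx. Metformin 1, the highest mouse for Ngfr, was the 4th for Mbp and Prx, and control 1 and control 3, which led for Mbp and Prx, were the 3rd and 4th for Ngfr. In the lower 4 mice the ratio spread only over 0.0628 to 0.0882.

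Over the 6 mice the Pearson r of Ngfr with the other 7 genes ran from -0.50 for Mag to 0.38 for Cnp, with 0.18 for both Mbp and Prx, and the Spearman rho ran from -0.43 to 0.49. After the mean of each group was taken out, r ran from -0.52 for Mag to 0.72 for Cnp, with 0.41 for Mbp and 0.39 for Prx, as descriptions with no test. Every exact permutation p adjusted over the 7 relations was at least 0.658. Because Ngfr had 2 high mice and 4 low ones, these coefficients describe likeness and could not be read as a test of a relation, and without the 2 mice farthest from the median of the other gene they ran from -0.996 for Gldn to 0.39 for Ncmap. The log2 difference between Ngfr and each other gene was larger in metformin mice than in controls by 1.38 (Gldn) to 1.82 (Ncmap), and its exact two-sided permutation p, which cannot go below 0.1 with 3 mice against 3, was 0.3 to 0.5 (adjusted over 7, 0.467 to 0.5).

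The genes most like Ngfr over the 6 mice, of 13319 annotated features at a mean of 1 CPM or more, were Pcp4 (r = 0.99), Prrx2 (0.98), Sept5, Pdlim2 and Gm9780 (0.96 each). Pcp4, a small calmodulin-binding protein, was at 6.67, 0.433 and 3.15 CPM in metformin mice, against 0.670, 0.341 and 0.684 CPM in controls. As for Ngfr, metformin 1 and 3 stood above the other 4 mice. The genes most like the mean of the other 7 were Pde4d (r = 0.99), Itpr1, Usp24, Pcdhgc4 (0.98 each) and Rnf150 (0.97). Itpr1, a calcium channel of the endoplasmic reticulum, was at 51.2, 78.3 and 76.8 CPM in metformin mice, against 94.98, 52.6 and 76.7 CPM in controls. The 7 genes did not share 1 pattern, and genes with a wide spread weigh more in their mean. Levels spread over 6.87-fold for S100b and 4.02-fold for Gldn, against 1.82-fold for Mbp and 1.94-fold for Prx. Metformin 2 was the 2nd highest mouse for Itpr1 and for S100b but the 5th for Mbp and Prx. Likeness to this mean is therefore not likeness to Mbp and Prx. These coefficients are descriptions over 6 mice.

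The summed markers of other cells known to make Ngfr had other orders of mice than Ngfr, while single genes on those lists resembled it. The 10 basal epithelial genes, each counted in every mouse, totalled 665, 408 and 571 CPM in metformin mice, against 572, 863 and 646 CPM in controls. Of these genes 8 were on the lower and 2 on the higher side, with a median log2 fold change of -0.49. There were 3 (Myh11, Mylk and Acta2) lower at an unadjusted edgeR p under 0.05, of which Myh11 also passed the thresholds. The shares over all tested features were 4.85% lower at that p and 1.28% past the thresholds lower. Oxtr, the oxytocin receptor of basal cells, had the same 2 highest mice and the same lowest mouse as Ngfr, at 240, 51.1 and 115 CPM in metformin mice, against 52.6, 107 and 77.4 CPM in controls (r = 0.78 with Ngfr, as a description). The r of the other 9 basal genes with Ngfr ran from -0.48 for Myh11 to 0.26 for Krt17. Without Oxtr, a choice made after the values had been seen, the other 9 totalled 425, 357 and 456 CPM in metformin mice. In controls they totalled 520, 757 and 568 CPM, so all metformin mice were below all controls in this sum. Acta2 carried a large part of it, at 161 to 216 CPM in metformin mice and 231 to 313 CPM in controls. The groups overlapped for Krt5, Krt14, Krt17 and Trp63. The 8 pericyte and mural genes, also counted in every mouse, totalled 1139, 1763 and 1248 CPM in metformin mice, against 1301, 1162 and 1245 CPM in controls. This sum is carried in large part by Des, a muscle filament gene, at 558 to 1110 CPM in metformin mice and 555 to 745 CPM in controls.

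Kcnj8, a potassium channel of pericytes, was at 16.9, 16.1 and 18.6 CPM in metformin mice, against 13.3, 11.7 and 14.005 CPM in controls (r = 0.71 with Ngfr, as a description). Cspg4, the pericyte proteoglycan, was at 84.0, 89.6 and 67.6 CPM in metformin mice, against 57.7, 56.7 and 48.4 CPM in controls. All metformin mice were above all controls for both, metformin 2 included. Of the 8 mural genes 6 were on the higher and 2 on the lower side, with a median log2 fold change of 0.22. The r of the 8 genes with Ngfr ran from -0.52 to 0.71, with 0.34 for Cspg4, so Kcnj8 was the most alike of this list. The genes of the lymphoid follicle, 3 of 8 of them with enough counts to be tested, totalled 5.18, 5.80 and 31.4 CPM in metformin mice, against 42.9, 6.52 and 19.6 CPM in controls, so metformin 1 was the highest for Ngfr and the lowest for this list. This sum is carried in large part by Cxcl13, at 2.86 to 18.8 CPM over the 6 mice, and Ccl21a, at 0.934 to 21.9 CPM. The list also holds B cell and lymph node stroma markers, so its sum does not stand for follicular dendritic cells alone. Cr2, a receptor that defines follicular dendritic cells, had 2, 5 and 15 counts in metformin mice, against 7, 4 and 0 counts in controls. With the level of the basal genes as a covariate the log2 fold change of Ngfr was 2.13 (SE 0.85), and with that of the Schwann cell markers it was 2.50 (SE 0.71), and neither passed the thresholds. The part of pericytes, basal cells or follicular cells in the level of Ngfr was not tested.

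Of the 16 other genes of peripheral myelin, its lipids and its regulators, all were tested and 0 passed the thresholds in edgeR, DESeq2 or limma-voom. None had an unadjusted edgeR p under 0.05, 7 were on the higher and 9 on the lower side, and the median log2 fold change was -0.16. Pmp22, a membrane protein whose dosage causes inherited neuropathy, was at 187 ± 12.3 CPM in metformin mice and 162 ± 43.2 CPM in controls (SD, n = 3 each). Pmp2, a fatty acid carrier of the sheath, had 3, 0 and 29 counts in metformin mice, against 50, 18 and 14 counts in controls, and these groups overlapped.

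Egr2, the transcription factor that switches on peripheral myelin genes, was among the genes of this list that did not follow Prx. It was at 9.34, 1.56 and 7.91 CPM in metformin mice, against 1.70, 2.93 and 5.01 CPM in controls. Its log2 fold change was 0.96 (SE 0.66, edgeR adjusted p = 0.768), and the highest mice were metformin 1 and 3, as for Ngfr (r = 0.82 over 6 mice, as a description). Egr2 is also an early response gene of many other cells. The genes for the galactolipids of myelin were low: Fa2h was at 1.65 ± 0.497 CPM in metformin mice and 2.08 ± 0.589 CPM in controls, and Ugt8a at 2.58 ± 0.223 CPM in metformin mice and 2.40 ± 1.29 CPM in controls.

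Other genes of this list were Mal, Gjb1, Drp2, Gal3st1, Cldn19, Pllp, Cadm4, Sh3tc2 and Pou3f1. Their log2 fold changes lay between -0.81 for Pou3f1, a transcription factor of promyelinating Schwann cells, and 0.31 for Gal3st1, the sulfotransferase that makes sulfatide. Gjb1, the gap junction protein connexin of the sheath, was at 0.507 ± 0.0960 CPM in metformin mice and 0.896 ± 0.797 CPM in controls. All of their groups overlapped.

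Among the 14 genes of the Schwann cell lineage and of non-myelinating Schwann cells, 11 were tested, 0 passed the thresholds higher and 1 passed lower. Of all tested features 0.421% passed higher and 1.28% lower, and 1 gene on a list this small is not a result about the list. There were 5 genes on the higher and 6 on the lower side, with a median log2 fold change of -0.19. The gene that passed was Erbb3, the neuregulin receptor on which Schwann cells depend, at 26.9, 21.2 and 22.9 CPM in metformin mice, against 43.3, 77.9 and 38.5 CPM in controls. All metformin mice were below all controls, with a log2 fold change of -1.17 (SE 0.28, edgeR adjusted p = 0.539). It missed the thresholds without metformin 2 (-1.09) or without metformin 3 (-1.15), and in DESeq2 it passed them with an adjusted p of 0.022. Sox10, the master regulator of the lineage, was at 22.2, 18.4 and 24.4 CPM in metformin mice, against 60.9, 112 and 18.6 CPM in controls. Control 3 was level with the metformin mice, and the log2 fold change of -1.56 missed the thresholds (edgeR adjusted p = 0.605), whereas without control 3 it was -1.99 (edgeR adjusted p = 0.0456) and passed them. DESeq2 on all 6 mice also put Sox10 past the thresholds (-1.55, adjusted p = 0.123). Gfra3, a receptor subunit for the growth factor artemin, was at 1.31, 1.40 and 1.90 CPM in metformin mice, against 0.822, 0.662 and 1.03 CPM in controls. All metformin mice were above all controls, and the log2 fold change of 0.88 (SE 0.39, edgeR adjusted p = 0.666) missed the thresholds.

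Erbb3 and Sox10 are also made by mammary epithelial cells. The 3 luminal keratin and adhesion genes (Krt8, Krt18 and Epcam) totalled 464, 309 and 371 CPM in metformin mice, against 497, 938 and 452 CPM in controls, and none of the 3 passed the thresholds. Control 2 was the highest mouse for this sum, for the basal sum and for Erbb3 and Sox10. With the basal gene level as a covariate the log2 fold change of Erbb3 was -0.67 (SE 0.19, edgeR adjusted p = 0.886), which no longer passed the thresholds, and that of Sox10 was -0.69. Of the 10 basal genes 8 were themselves lower in metformin mice, so this fit cannot tell treatment and basal gene level apart. Features past the thresholds fell from 271 to 102 in it, so the lost call is not particular to Erbb3. The part of epithelial cells in these values was not tested. Scn7a, a sodium channel of non-myelinating Schwann cells, was at 135, 94.2 and 98.9 CPM in metformin mice, against 79.5, 119 and 174 CPM in controls, with no order by group.

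At the node of Ranvier and its flanks, 1 of 8 tested genes passed the thresholds, lower in metformin mice, where 1.28% of all tested features did. Scn8a, a sodium channel of the node, was at 0.133, 0.313 and 0.2503 CPM in metformin mice, against 0.670, 1.04 and 0.831 CPM in controls. Its 6 to 13 counts in metformin mice and 22 to 52 in controls did not overlap, and the log2 fold change was -1.86 (SE 0.51, edgeR adjusted p = 0.539). With no filter on low counts it was -1.86 with an SE of 0.58 and no longer passed, and leaving out any 1 mouse gave -1.62 to -2.14, none of which passed. Nfasc, which anchors the nodal complex, had a log2 fold change of -1.35 (edgeR adjusted p = 0.604), and Cntnap1, of the junctions beside the node, one of 0.54 (edgeR adjusted p = 0.661), and both had an unadjusted p under 0.05. Without control 3 Nfasc was at -1.65 and passed the thresholds (edgeR adjusted p = 0.192), and DESeq2 on all 6 mice put both Scn8a (adjusted p = 0.134) and Nfasc (adjusted p = 0.186) past them.

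Of the 8 axon and neuron genes 3 were tested and 0 passed the thresholds in edgeR, DESeq2 or limma-voom, and none had an unadjusted p under 0.05. Stmn2, a tubulin-binding protein of growing axons, was the most counted, at 9.30 ± 2.66 CPM in metformin mice and 7.36 ± 1.58 CPM in controls. The neurofilament genes Nefl, Nefm and Nefh had 0 to 47 counts per library and were not tested.

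Among the 14 neurotrophins, their receptors and partners of Ngfr, 13 were tested and 0 passed the thresholds in edgeR or DESeq2. There were 2 genes at an unadjusted p under 0.05, both higher in metformin mice, where 2.68% of all tested features were. On the higher side were 10 of the 13, with a median log2 fold change of 0.22, against 8170 of all 15925 features. Counts this small describe the single genes and are not a result about the list. Ntrk3, the receptor of neurotrophin-3, was at 58.8, 52.4 and 51.1 CPM in metformin mice, against 37.4, 20.0 and 39.0 CPM in controls, and the groups did not overlap (log2 fold change 0.75, SE 0.26, edgeR adjusted p = 0.604). Rtn4r, the Nogo receptor that signals together with Ngfr in neurons, was at 3.42, 2.29 and 2.70 CPM in metformin mice, against 1.25, 1.97 and 1.075 CPM in controls (log2 fold change 0.97, edgeR adjusted p = 0.642).

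Bdnf, a neurotrophin that binds Ngfr, was at 16.8, 3.30 and 6.28 CPM in metformin mice, against 0.457, 2.11 and 5.74 CPM in controls (log2 fold change 1.66, SE 0.88, edgeR adjusted p = 0.726), and metformin 1 was its highest mouse, as for Ngfr.

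The 11 lists of markers of other cell types held 70 genes, of which 56 were tested, 0 passed the thresholds higher and 4 passed lower in metformin mice. Over all tested features 0.421% passed higher and 1.28% lower. Of the 10 basal genes the one that passed was Myh11, the smooth muscle myosin of myoepithelial and vascular muscle cells (log2 fold change -0.86, edgeR adjusted p = 0.539). The other 3 were milk genes, Csn3, Lalba and Csn1s1, of 5 tested, for which control 3 lay near the metformin mice. The mural, lymphoid follicle, T cell, melanocyte, oligodendrocyte, adipocyte, brown adipocyte, skeletal muscle and luminal lists had 0 genes past the thresholds, with 2 mural genes, Cspg4 and Kcnj8, and the adipocyte gene Plin1 higher and the luminal gene Epcam lower at an unadjusted edgeR p under 0.05. DESeq2 put 0 genes of the 11 lists past the thresholds higher and 6 lower, against 3.26% of all features past them in either direction. Tyr, the defining enzyme of melanocytes, a related neural crest cell type, had 0 counts in every library, and the melanocyte list summed to 2.24 to 3.33 CPM in metformin mice and 1.46 to 3.18 CPM in controls. Tyr was the only gene of the 5 on this list at 0 in every library, and 3 of the 5 were tested. Dct, another of them, had 127, 58 and 56 counts in metformin mice, against 24, 40 and 77 counts in controls.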

How the data were processed

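Each gland was sequenced as 1 library, and the authors deposited a table of raw read counts per gene and a table of FPKM values per gene for the 6 mice. Reads were mapped by the authors' provider to GRCm38, and HISAT2 and StringTie are listed in the submitters' processing notes. Tool versions, the counting tool, the annotation release and the use of strand were not stated in any source used here. The tables also hold unannotated features named NewGene, 3124 of 25160, and 1170 of the 15925 tested.

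Counts were filtered with filterByExpr, scaled by TMM and tested over all features with edgeR 4.0.16 (quasi-likelihood, R 4.3.3). The thresholds were fold change 1.5 and p under 0.01, and p-values were adjusted by the Benjamini-Hochberg method over all features. CPM was made from the counts, with a prior count of 2 on the log2 scale. DESeq2 1.42.0, limma 3.58.1 (voom, and trend on log2 FPKM with pseudocounts 1 and 0.1), other scalings and filters, a replicate block, marker covariates and leaving out each mouse were the alternatives. The members and the 16 gene lists (the peripheral myelin, Schwann lineage, node, axon and neurotrophin lists and 11 lists of other cell types) were chosen with earlier results of these data known.

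Named genes were the 8 members, the tested peripheral myelin genes, up to 4 genes of each other list with the smallest p, and the 5 genes most alike in pattern. The values of other genes (Mobp, Opalin, Tyr, Cr2, Oxtr, Krt17, Des, Myh2, Ncam1, Scn7a and the neurofilament genes) are given to show markers at or near 0 or roles of the pathway and were chosen after the values were seen, as was the relation of S100b to brown adipocyte genes. Some genes of the lists are counted but not reported here by name. Tests were tried on simulated counts first. Gene positions come from GENCODE vM21 (GRCm38), in which 99.94% of the Ensembl IDs were found, and promoter windows from RefSeq on GRCm38.p6.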

Additional observations from a re-analysis of the deposited data

How the results depend on the processing

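With 3 mice a group, 1 mouse can set a value, and genes under about 1 CPM rest on few counts. Ngfr stayed higher in metformin mice in all 20 alternatives and passed the thresholds in DESeq2 (1.96, 1 of 8 genes) and without metformin 2; leaving out each mouse in turn gave 1.36 to 2.46, and 0 to 1 genes of the 8. No other of the 8 passed in any alternative. Fold changes near 0 changed sign: Gldn in limma-voom (0.14) and, with Schwann cell markers as a covariate, Gldn (0.37), Mbp (0.21), Prx (0.23), Mag (0.0077) and S100b (0.50), as Cnp did with basal markers (0.0033). With each mouse left out, Cnp ran from -0.36 to 0.019, Gldn from -0.46 to 0.29, Mag from -0.21 to 0.10 and S100b from -0.85 to 0.77, and the r of Ngfr from -0.97 to 0.038 with Gldn, -0.74 to 0.0070 with Mag, -0.10 to 0.60 with Mbp, -0.43 to 0.10 with Ncmap, -0.13 to 0.56 with Prx, 0.027 to 0.56 with Cnp and -0.66 to 0.10 with S100b. The r of S100b with Ucp1, Cidea and Elovl3 stayed at 0.88 or more with each mouse left out.

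Features past the thresholds numbered 271 in edgeR, 519 in DESeq2, 102 with basal markers as a covariate, 165 on FPKM with pseudocount 1, 98 there with no filter, and 107 (without control 2) to 666 (without control 3) with a mouse left out, with 177 without control 1 and 144 without metformin 1. At an adjusted p under 0.05 there were 0 in edgeR, 200 in DESeq2 and 0 to 96 with a mouse left out (96 without control 3). Schwann lineage genes lower numbered 2 in DESeq2, 0 with basal markers and on FPKM with no filter, and 0 to 2 with a mouse left out (0 without metformin 2, 2 without control 3). Node genes lower numbered 2 in DESeq2 and 0 with no filter, with at least 10 counts in every mouse, with basal or brown adipocyte markers and on FPKM at either pseudocount, and 0 to 1 with a mouse left out. Neurotrophin genes higher numbered 1 with Schwann cell (Ntrk3), basal (Rtn4r) or brown adipocyte markers (Bdnf), and lower 0 to 1 with a mouse left out (1 without control 3). Marker list genes lower numbered 2 in limma-voom, 7 with no filter, 0 with basal markers, 2 on FPKM with pseudocount 1, 1 there with no filter and 2 (without metformin 1 or 2) to 9 (without control 3) with a mouse left out, and higher 0 to 2 (1 without metformin 3, 2 without control 3). The cause was not tested.

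Deviations from the group means correlated at -0.349, -0.137 and -0.0133 between same-numbered mice. Between mice of unlike number in the 2 groups they correlated at -0.117 to 0.286. With 3 mice a group these values depend on one another, so they cannot show whether the mice were paired. With the replicate number as a block, 118 features passed the thresholds, Ngfr had 1.53 and Gldn 0.015, and 0 node and 1 marker list genes were lower.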
